A study of Solanum lycopersicum with 27 samples.

Results

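Shoots of tomato seedlings held for 3 h at 4°C were compared with shoots taken just before the transfer (T0), to see which transcripts moved away from their starting level in the cold. The comparison uses 6 of the 27 RNA-seq libraries of the study: replicates 1 to 3 of the shoots at 4°C, and T0 replicates 1 to 3. The study's supplement states that 3 T0 libraries shared the batch of the 3 h samples, without naming them, and replicates 1 to 3 were taken to be these because its sequencing summary lists them with the same number of bases per read as the 3 h libraries. All were from the cultivar M82, with no transgene named in the labels, grown in hydroponics to 18 days of age at 24°C by day and 20°C by night with 16 h of light, and each library was a pool of 4 seedlings. T0 shoots were collected 2.5 h after lights on, before seedlings were moved to fresh containers. Chilled seedlings then stood in a cold-room in the light for 3 h. The groups thus differ in temperature, in time of day and in that move. These cannot be told apart from these 6 libraries alone. The values of the 3 libraries from seedlings also moved to fresh containers, but kept for the same 3 h at 24°C, are therefore given beside them. Nothing says whether the pools came from separate growth runs, so p-values measure the spread between pools. That spread was estimated within the groups of all 18 shoot libraries, not from these 6 alone.

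Tomato is a plant of warm origin that is injured by temperatures well above freezing. In Arabidopsis and tomato, chilling raises the transcripts of CBF (DREB1) transcription factors, which bind a short promoter element of genes for cold tolerance. The circadian clock, a set of transcription factors that repress and activate each other in turn through the day, gates that response. Cold in turn dampens the oscillation of clock genes in Arabidopsis. Chilling in the light also strains the chloroplast, which has a genome of its own, transcribed by a polymerase of its own and by nuclear-coded ones.

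The 20545 features of the shoot table carry normalized counts that sum to between 20328938 and 20332140 in every shoot library, so they hold no sequencing depth, and T0 libraries of this batch were sequenced more deeply than the chilled ones. Replicates of a group correlated at 0.980 to 0.991 across genes, T0 with 4°C libraries at 0.940 to 0.950. T0 replicate 3 stood furthest from its group, at 0.980 and 0.982 against 0.991 between the other two T0 libraries. EF1a (Solyc06g005060), the elongation factor gene used as a qPCR reference in the study, had normalized counts of 41447, 41489 and 41750.0 at T0 and 39868, 40522 and 40067 at 4°C, a log2 difference of -0.05 (adjusted p = 0.61). The chloroplast gene rbcL, for the large subunit of Rubisco, lay between 926 and 1692 at T0. Of 4 root markers looked for, 2 were tested in shoots: SHR (Solyc08g014030, also named SGR7), known from the root stele of Arabidopsis, with 335, 339 and 369 at T0 and 158, 197 and 219 at 4°C, and MYB36 (Solyc09g008250), of the endodermis, with 28.6, 36.6 and 48.1 at T0 and 24.2, 35.2 and 43.2 at 4°C. The other 2, EXPA7 (Solyc08g080060) and a second MYB36 gene (Solyc11g069030), were absent from the features of the shoot table.

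After 3 h at 4°C far more genes stood below T0 than above it, and the largest rises were those of plastid genes. Of 20535 genes tested, 2888 (14.1%) were called at an adjusted p under 0.01 by limma, 589 higher (2.87%) and 2299 lower (11.2%). The higher set held 405 genes at least 2-fold above T0 (1.97% of those tested), and 113 of them were at least 16-fold above, of which 97 were plastid and 16 nuclear. The lower set held 924 at least 2-fold below (4.5%), and 10 at least 16-fold below, all nuclear. At least 4-fold changes made up 1.13% of the genes tested upward and 1.22% downward. The median size of a called change was 1.56 on the log2 scale among the higher genes (1.23 among the 457 nuclear ones) and 0.85 among the lower. Fold and log2 differences are on log2(normalized count + 1), which understates the change of genes with low values. In whole shoots, fewer cells of a type and less RNA per cell cannot be told apart.

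The split between higher and lower calls depended on how the libraries were scaled. Plastid genes took a much larger part of the normalized counts in the cold (values at the end), and the median gene stood at -0.14 on the log2 scale. With nuclear genes alone, scaled to the same nuclear sum, 608 were called higher and 1587 lower, at a median of -0.05. As deposited, 457 nuclear genes were higher and 2299 lower. Rescaling each library by its median ratio over nuclear genes moved the median of all genes by 0.16 to 0.02 and left 2361 calls. Of these 1033 were higher (5.03% of genes tested) and 1328 lower (6.47%). Higher calls thus made up 43.8% of all calls, against 20.4% as deposited. Each of the 589 higher calls was also called higher after rescaling, while 1328 of the 2299 lower calls were also called lower and no call changed direction. Of the genes described below as having risen or fallen, CLC-A was the exception that was no longer called after this rescaling. When rescaling was combined with a fit of the 6 compared libraries alone, chosen after seeing the data, 6 more lost their call: NAC083 (Solyc01g009860) at -1.02, WRKY49 at -2.49, bHLH Solyc03g006910 at -2.30, bZIP42 at -2.77, XERICO at -1.23 and CYP94B1 (Solyc09g066150) at -1.29.

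The T0 libraries of this batch are not interchangeable with those of the batch that holds the 30 min samples. Between both T0 groups 4827 genes (23.5%) were called, more than between T0 and 3 h at 4°C, although the labels give them the same treatment and age. Only the T0 libraries of the same batch enter the values below, unless stated.

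**Figure D1:**
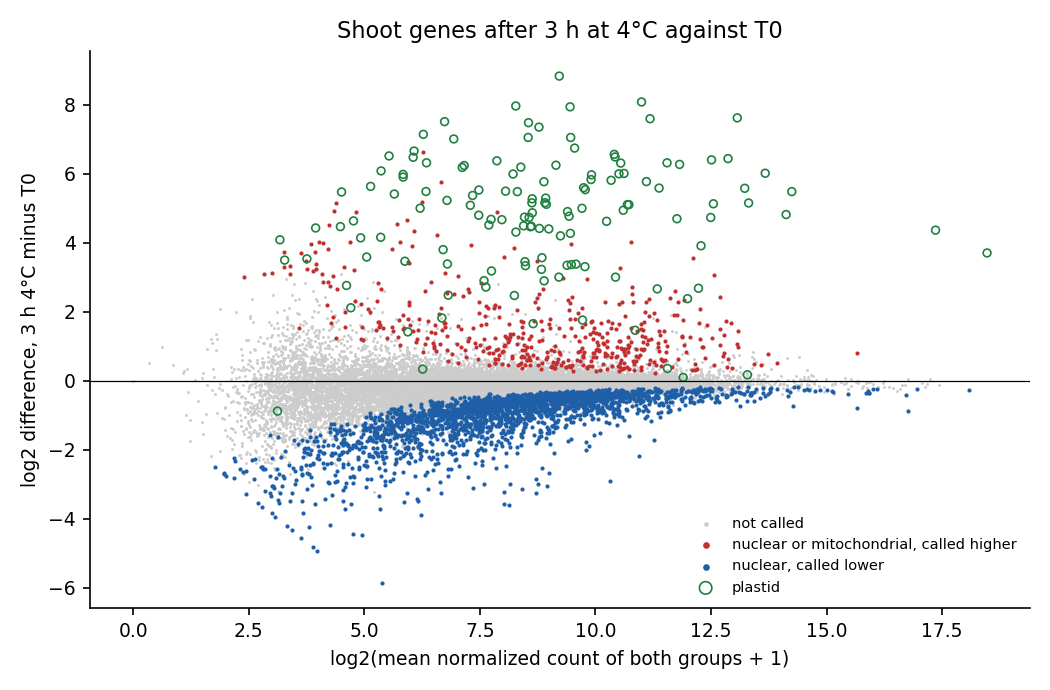
Log2 difference between 3 h at 4°C and T0 (y axis) against the log2 mean normalized count of both groups plus 1 (x axis), 1 point per gene of 20535 tested. Red and blue points were called higher (589, of which 131 are plastid genes drawn as green circles) and lower (2299) at an adjusted p under 0.01, and the lower points crowd close to the zero line while the plastid circles reach up to 8.84.

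The CBF group rose in part. Of 5 tested CBF and DREB1 genes, 3 were called higher and 0 lower. Over all genes 2.87% were higher and 11.2% lower, which is the background for the counts of every list below. CBF3 (Solyc03g026280) had normalized counts of 230.0, 118 and 295 at T0 and 3098, 3067 and 3589 at 4°C. All chilled libraries were above all T0 libraries, and the log2 difference was 4.01 (standard error 0.49, adjusted p = 7.19e-06). CBF2 (Solyc03g124110) had 147, 47.3 and 68.5 at T0 and 369.6, 319 and 402 at 4°C, a difference of 2.2 (standard error 0.53, adjusted p = 0.00528). DREB1D (Solyc08g007820), a member of the same AP2/ERF branch, had 375, 211 and 135 at T0 and 1434, 1142 and 1006 at 4°C, a difference of 2.42 (standard error 0.39, adjusted p = 0.000133). The remaining members were not called: CBF1 (Solyc03g026270), which lies next to CBF3 by its number, had 73.6, 38.7 and 48.6 at T0 and 70.5, 43.3 and 62.4 at 4°C, a log2 difference of 0.15 (adjusted p = 0.86), and DDF1 (Solyc08g007830) had 216, 115 and 60.5 at T0 and 248, 151 and 94.5 at 4°C, a difference of 0.41 (adjusted p = 0.73). Their T0 and 4°C libraries overlapped. The call of CBF2 was lost when any 1 of 5 libraries was left out (T0 replicate 1 being the exception), at differences of 1.84 to 2.29.

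At 24°C the same 5 genes were called lower than T0, where 25.6% of all genes were called, 14.7% higher and 10.9% lower. CBF3 was at 7.79 ± 5.24 (SD, n = 3), CBF2 at 0.504 ± 0.812 and CBF1 at 0.504 ± 0.812, and both CBF2 and CBF1 lay between 0.027 and 1.44 in every 24°C library, with the same 3 listed values for both genes. Each of the 5 was higher at 4°C than at 24°C when those groups were tested directly, a test that called 39.5% of all genes, 9.63% above 24°C and 29.9% below. For CBF1 that difference was 5.41 (standard error 0.45, adjusted p = 1.69e-08) on the log2 scale, so a gene with no call against T0 stood far above its ambient level. CBF genes are near copies of each other, and reads that fit several of them could be split in counting.

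Among all named nuclear genes, OPR2 (Solyc09g098320), of a family of oxophytodienoate reductases, showed the highest difference. Its normalized counts were 0.591, 1.23 and 0 at T0 and 133, 136 and 185 at 4°C, a rise of 6.62 (standard error 0.60, adjusted p = 1.62e-07). It was listed at 0 in the 24°C libraries. BCS1 (Solyc10g079630), named for a mitochondrial ATPase of Arabidopsis, followed with 2.8, 3.61 and 2.69 at T0 and 124, 163 and 153 at 4°C, and CNGC15 (Solyc09g007840), a cyclic nucleotide-gated channel gene, with 9.63, 13.8 and 17 at T0 and 254, 436 and 657 at 4°C. Their differences were 5.19 (adjusted p = 1.66e-06) and 4.89 (adjusted p = 2.37e-06). RLI1 (Solyc08g075360) was the last of the 14 highest named genes at 2.55 (adjusted p = 0.0019), and its call was lost without T0 replicate 3 (2.14) or 4°C replicate 1 (2.44).

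A pair of neighbouring zinc finger genes rose together. AZF3 (Solyc12g088400) and STZ (Solyc12g088390) belong to the C2H2 family of stress-responsive repressors. AZF3 had 45.6, 56.4 and 213 at T0 and 1336, 1337 and 1234 at 4°C, and STZ had 24.8, 27.8 and 78.7 at T0 and 510.1, 533 and 385 at 4°C. In both genes T0 replicate 3 was the highest of its group and still far under the lowest chilled library. AZF3 rose by 3.97 (standard error 0.53, adjusted p = 1.93e-05) and STZ by 3.6 (standard error 0.53, adjusted p = 5.65e-05). At 24°C their means were 11.9 ± 2.78 and 4.11 ± 2.0 (SD, n = 3).

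**Figure D2:**
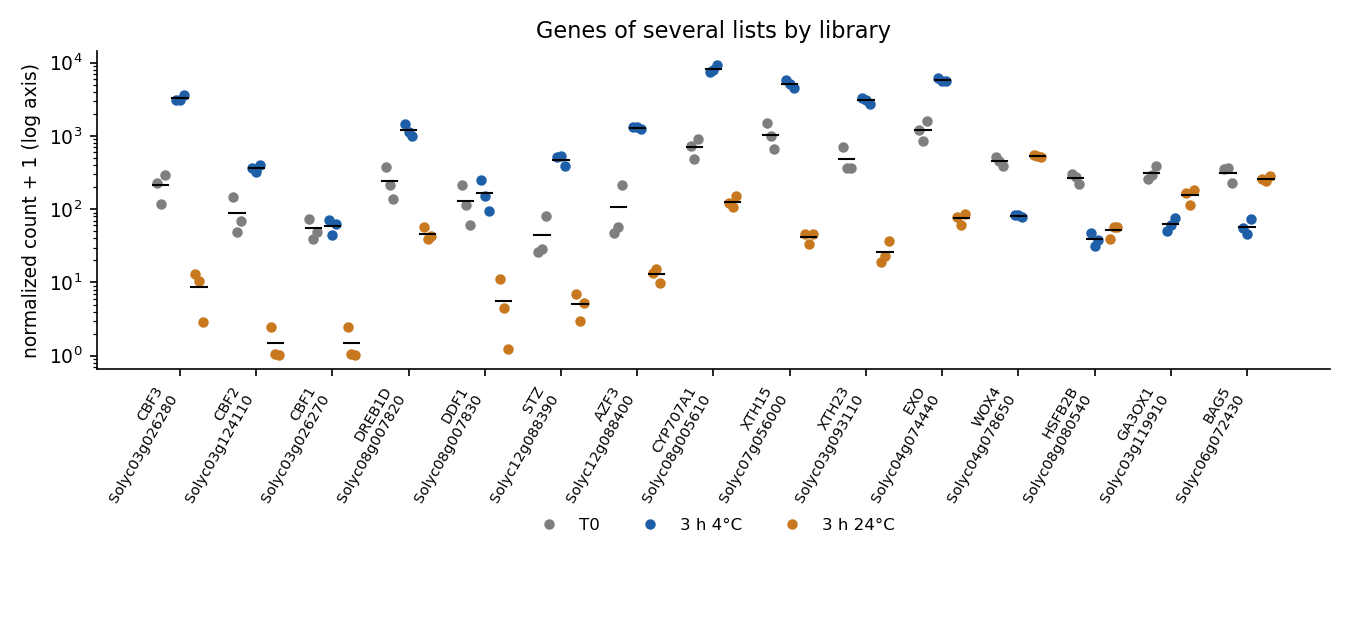
Normalized count plus 1 (log axis) of 15 genes in each library at T0 (grey), 3 h at 4°C (blue) and 3 h at 24°C (orange), 1 point per library and a black line at the mean of 3. CBF3, the zinc finger genes and the cell wall genes are above T0 at 4°C and below it at 24°C, CBF1 and DDF1 overlap T0 at 4°C, and WOX4, HSFB2B, GA3OX1 and BAG5 are below T0 at 4°C.

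Clock genes went several ways at once. Of 16 tested, 6 were higher and 2 lower, with a median log2 difference of 0.31 against -0.14 for all genes. CCA1/LHY (Solyc10g005080), the morning repressor at the core of the loop, had 5101, 5191 and 5083 at T0 and 3275, 3219 and 3645 at 4°C. All chilled libraries lay below all T0 libraries, a difference of -0.60 (standard error 0.06, adjusted p = 1.05e-06). The fall was small beside that at 24°C, where the mean was 519 ± 37.1 (SD, n = 3), -3.3 from T0, and the chilled libraries were higher than those at 24°C by 2.7 (standard error 0.06, adjusted p = 6.69e-16). Its relatives RVE6 (Solyc01g095030), RVE7/EPR1 (Solyc03g098320) and RVE8 (Solyc10g084370), MYB factors of the morning, were not called against T0, with log2 differences of -0.32 (adjusted p = 0.015), -0.48 (adjusted p = 0.023) and -0.14 (adjusted p = 0.35).

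RVE1 (Solyc02g036370), a further MYB factor that links the clock to auxin in Arabidopsis, stood apart from its relatives. It had 251, 304 and 288 at T0 and 2432, 3007 and 2659.9 at 4°C. The groups were far apart, the chilled libraries higher by 3.26 (standard error 0.14, adjusted p = 1.11e-11). At 24°C it was called the other way, at 60.5 ± 14 (SD, n = 3), -2.22 (adjusted p = 7.25e-10) from T0.

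The pseudo-response regulators, which repress CCA1/LHY in sequence through the day, split. PRR9 (Solyc10g005030), the earliest, had 1786, 1729 and 1899 at T0 and 3445, 4196 and 4369 at 4°C, a rise of 1.14 (standard error 0.11, adjusted p = 3.51e-07), while its 24°C mean was 1625 ± 113 (SD, n = 3) and not called against T0 (adjusted p = 0.29). PRR7 (Solyc10g086000) had 589.5, 617 and 614 at T0 and 385, 399 and 355 at 4°C, a difference of -0.68 (standard error 0.09, adjusted p = 1.02e-05), while it was higher than T0 at 24°C, with a mean of 1338 ± 62.4. PRR5 (Solyc03g081240) rose from 74.1, 72.8 and 59.4 to 656, 809 and 872, by 3.48 (adjusted p = 4.47e-08), close to its 24°C mean of 1121 ± 53.3 (4°C against 24°C, -0.53, adjusted p = 0.13). TOC1 (Solyc03g115770), the evening member, had 46.6, 46.1 and 33.3 at T0 and 34, 41.1 and 35.4 at 4°C and was not called (-0.17, adjusted p = 0.79).

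Genes of the late day and evening mostly held near T0 or made part of the ambient rise. GI-1 (Solyc04g071990), a GIGANTEA gene of light and clock signalling, had 554, 562 and 571 at T0 and 611, 611 and 582 at 4°C, a log2 difference of 0.10 (adjusted p = 0.55), against a 24°C mean of 5181 ± 303 (SD, n = 3). GI-2 (Solyc12g056650) rose from 1305, 1377 and 1364 to 1663, 1742 and 1725, by 0.34 (adjusted p = 0.00671), against 8776 ± 141 at 24°C, a small rise whose call was lost when any 1 of the 6 libraries was left out. FKF1 (Solyc01g005300), a blue light receptor that acts with GI, had 13.2, 5.51 and 8.84 at T0 and 191, 184 and 164 at 4°C, a rise of 4.22 (standard error 0.31, adjusted p = 9.8e-09), and its difference from 24°C was -1.2 (adjusted p = 0.00332), with a 24°C mean of 416 ± 50.1. Of the evening complex, ELF4 (Solyc06g051680) rose from 0.003, 3.36 and 4.07 to 21.6, 20.3 and 38.1, by 3.24 (adjusted p = 8.81e-05), although against the T0 libraries of the other batch it differed by 0.94 and was not called. ELF3 (Solyc08g065870) and both genes named LUX (Solyc06g005680 and Solyc06g076350) were not called, at 0.29 (adjusted p = 0.29), 0.88 (adjusted p = 0.33) and 0.86 (adjusted p = 0.035).

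**Figure D3:**
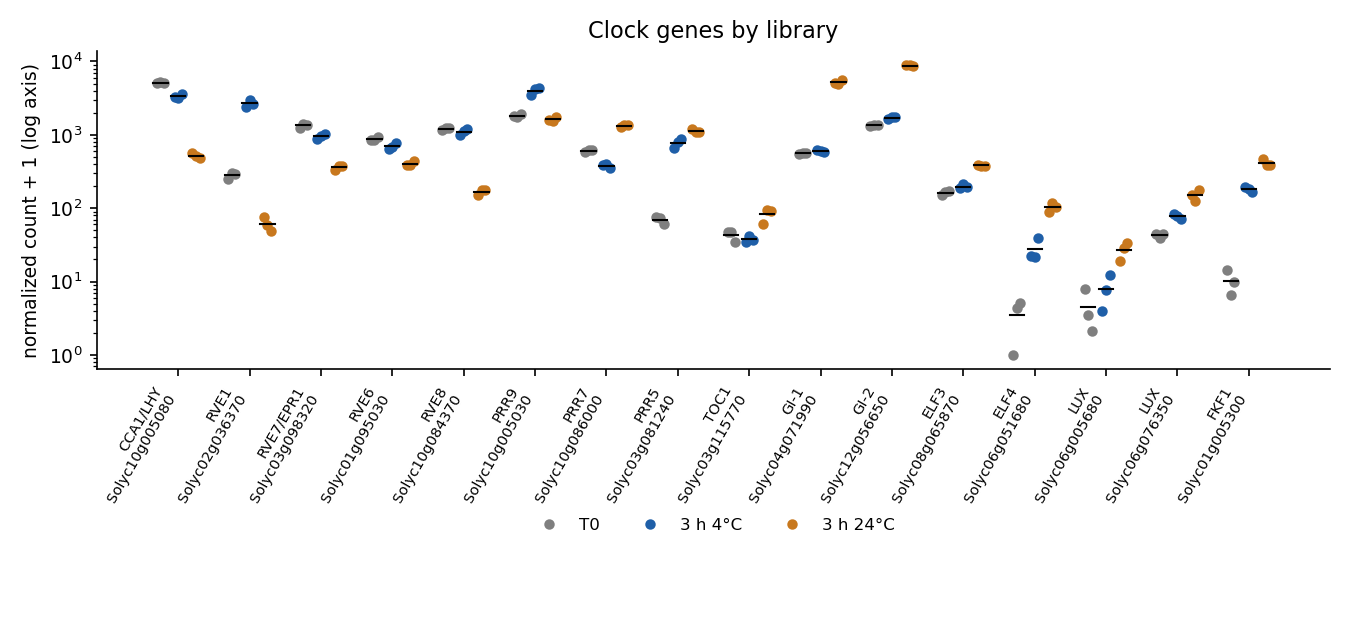
Normalized count plus 1 (log axis) of the 16 tested clock genes in each library at T0 (grey), 3 h at 4°C (blue) and 3 h at 24°C (orange), 1 point per library and a black line at the mean of 3. RVE1 and PRR9 are highest in the blue points, PRR5, ELF4 and FKF1 are above T0 in blue and orange points, and GI-1 is near T0 in blue and far above in orange.

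Downstream of the clock, CDF factors, Dof proteins that repress the flowering gene CONSTANS in Arabidopsis, were higher. Among 15 CDF and CONSTANS-like genes 6 rose and 2 fell. The 3 genes named CDF2 rose: Solyc05g007880 from 280.0, 294 and 364 to 1014, 1079 and 1145 (1.79, adjusted p = 1.01e-08), Solyc02g067230 by 1.5 (adjusted p = 0.000112) and Solyc02g088070 by 2.3 (adjusted p = 1.15e-05). CDF3 (Solyc03g115940), more abundant, had 3700.5, 3948 and 3787 at T0 and 4875, 5332 and 5854 at 4°C, a smaller rise of 0.49 (adjusted p = 0.000321). COL2 (Solyc02g089540) rose by 1.04 (adjusted p = 0.00446) and a CONSTANS-like gene (Solyc09g074560) by 0.47 (adjusted p = 0.00241). CONSTANS-LIKE 16 (Solyc04g007210) fell, at -1.4 (adjusted p = 3.12e-05), as did a CONSTANS-like gene (Solyc03g119540), from 2905, 2764 and 3255 to 1252, 1354 and 1849.9 (-1.02, adjusted p = 5.47e-06). The other 7 ran from -0.51 (adjusted p = 0.44) for STH2 (Solyc04g081020) to 1.13 (adjusted p = 0.043) for a further gene named CONSTANS-LIKE 16 (Solyc05g009310); they include COL4 (Solyc12g096500), STO (Solyc06g073180), COL9 (Solyc12g006240), CONSTANS-LIKE 3 (Solyc01g110370) and a CONSTANS-like gene (Solyc05g024010). COL4 and Solyc05g024010 were called higher after rescaling.

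Cell wall genes held the most members at least 4-fold above T0 among the nuclear lists drawn up by role. Of 17 tested, 10 were higher, 6 of them at least 4-fold, and 3 were lower, with a median log2 difference of 1.69. XTH15 (Solyc07g056000), a xyloglucan endotransglucosylase/hydrolase that cuts and rejoins wall polymers, had 1484, 983 and 656 at T0 and 5889, 5183 and 4524 at 4°C, a difference of 2.39 (standard error 0.33, adjusted p = 2.65e-05). The 4 genes named XTH23, neighbours on chromosome 3 by their numbers (Solyc03g093080, Solyc03g093110, Solyc03g093120 and Solyc03g093130), rose by 2.24, 2.73, 2.1 and 2.95. The most abundant of them, Solyc03g093110, had 715, 368 and 364 at T0 and 3334, 3122 and 2723 at 4°C. These XTH23 copies are alike enough in name that reads could be shared among them.

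EXO genes, named for EXORDIUM, a cell wall protein of brassinosteroid-promoted growth in Arabidopsis, moved with them. EXO Solyc04g074440 had 1217, 850.4 and 1587 at T0 and 6152, 5656 and 5576 at 4°C, a rise of 2.29 (standard error 0.22, adjusted p = 2.71e-07), and its 24°C mean was 74.7 ± 13.2 (SD, n = 3). The neighbours Solyc04g074430 and Solyc04g074420 rose by 1.69 (adjusted p = 1.96e-05) and 1.96 (adjusted p = 8.03e-05). EXLA1 (Solyc01g112000), expansin-like, rose by 1.99 (adjusted p = 9.25e-09), and PME1 (Solyc03g123620), a pectin methylesterase gene, by 1.31 (adjusted p = 0.00254). Against this, EXPA4 (Solyc06g051800), an expansin, fell, at -1.37 (adjusted p = 0.000163) and both genes named XTH32 fell, Solyc09g008320 from 1718, 1540.3 and 1662 to 875, 1022 and 1027 (-0.75, adjusted p = 5.54e-05) and Solyc11g066270 at -1.58 (adjusted p = 0.000528). CSLD3 (Solyc03g097050), for a cellulose synthase-like protein, was not called, at 0.76 (adjusted p = 0.069). EXPA4, XTH32 and EXO Solyc04g074420 were picked after their values were seen, as were all list members named below that are neither among the 6 most abundant of their list nor at least 4-fold changed.

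Ubiquitin ligase genes rose in 8 of 12 tested members, and 1 fell. PUB25 (Solyc01g107980), of the U-box ligases, had 495, 539.7 and 575 at T0 and 1444, 1524 and 1346 at 4°C, a rise of 1.42 (standard error 0.13, adjusted p = 2.75e-07). PUB9 (Solyc09g056450) rose by 0.90 (adjusted p = 1.59e-06), PUB22 (Solyc01g007020) by 1.36 (adjusted p = 0.000901), and the genes named PUB23, Solyc01g007030 and Solyc01g007000, by 2.15 (adjusted p = 0.0069) and 2.51 (adjusted p = 0.00231). Both PUB23 calls were lost when T0 replicate 3, 4°C replicate 1 or 4°C replicate 2 was left out, and that of Solyc01g007030 also without T0 replicate 2, at 1.68 to 2.25 for Solyc01g007030 and at 1.98 to 2.48 for Solyc01g007000. COP1 (Solyc12g005950), the repressor of light signalling, had 1231, 1257 and 1188 at T0 and 1607, 1624 and 1751 at 4°C, a rise of 0.44 (adjusted p = 0.0003). The RING genes ATL2 (Solyc01g066430) and RHA2A (Solyc04g007500) rose by 0.94 (adjusted p = 0.000535) and 0.60 (adjusted p = 0.000518), and ATL8 (Solyc03g032060) fell, at -1.5 (adjusted p = 0.000741). The call of RHA2A was lost in the fit of the 6 compared libraries alone (0.601), and its difference from the mean of both T0 groups was 0.26, not called.

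Genes for cryoprotectants, small molecules that shield proteins and membranes, rose in 3 of 8 cases and fell in 0. SAMDC2 (Solyc02g089610), S-adenosylmethionine decarboxylase of polyamine synthesis, had 4228, 3438 and 2853 at T0 and 8135, 8024 and 8364 at 4°C, a rise of 1.24 (standard error 0.12, adjusted p = 3.31e-07). TPS7 (Solyc02g072150), trehalose-phosphate synthase, had 2667, 2303 and 2585 at T0 and 5642, 5009 and 4967 at 4°C, a rise of 1.05 (standard error 0.14, adjusted p = 2.02e-05), and a trehalose phosphatase of the HAD family (Solyc04g072920) had 179.97, 170.3 and 137 at T0 and 688, 704 and 725 at 4°C, a rise of 2.121 (standard error 0.22, adjusted p = 8.93e-07). ADC2 (Solyc10g054440), arginine decarboxylase, was the most abundant, with 18957, 18549.5 and 12551 at T0 and 27941, 26440.5 and 25221 at 4°C, and was called only after rescaling (log2 difference 0.69, adjusted p = 0.013 as deposited). Galactinol synthase GolS (Solyc02g084980) and raffinose synthase (Solyc02g086530) were not called, at 0.33 (adjusted p = 0.45) and 0.11 (adjusted p = 0.9), nor were TPPA (Solyc03g083960, 0.03, adjusted p = 0.91) and a second ADC2 gene (Solyc01g110440, 2.82, adjusted p = 0.019). All but TPPA were higher at 4°C than at 24°C in the direct test.

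Abscisic acid is a dehydration hormone whose level is set by 9-cis-epoxycarotenoid dioxygenases (NCED) on the side of synthesis and by CYP707A hydroxylases on the side of breakdown. Of 21 tested genes of this list 4 rose and 2 fell, where 2.87% of all genes were called higher and 11.2% lower. The breakdown gene CYP707A1 (Solyc08g005610) had 721, 485 and 911 at T0 and 7456, 7844 and 9239 at 4°C, a rise of 3.57 (standard error 0.26, adjusted p = 9.32e-09), and a 24°C mean of 126 ± 23.3 (SD, n = 3). The synthesis gene NCED5 (Solyc08g016720) had 148, 183 and 88.5 at T0 and 772, 808 and 562 at 4°C, a rise of 2.39 (standard error 0.43, adjusted p = 0.000467). NCED3 (Solyc07g056570), more abundant at 2749, 3505 and 4369.9 at T0 and 5752, 5873 and 4510.0 at 4°C, was called only after rescaling (0.62, adjusted p = 0.027 as deposited).

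Receptor genes of the hormone split. PYL4 (Solyc10g085310) rose by 1.17 (adjusted p = 1.5e-05), and PYR1 (Solyc08g076960) had 441, 423 and 476 at T0 and 136, 111 and 106 at 4°C, a difference of -1.92 (standard error 0.15, adjusted p = 3.09e-08). XERICO (Solyc12g006230), a RING protein of abscisic acid balance in Arabidopsis, fell, at -1.39 (adjusted p = 0.00113). ERD15 (Solyc10g079820), an early dehydration gene, rose from 9531, 9508 and 8434 to 12745, 12763 and 13252, by 0.50 (adjusted p = 5.57e-05). The abundant dehydration genes SAG21 (Solyc06g009140), ERD7 (Solyc01g111440) and LEA14 (Solyc01g095140) were not called, at 0.13 (adjusted p = 0.74), 0.42 (adjusted p = 0.3) and 1.22 (adjusted p = 0.038).

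In the calcium and kinase list, replicate 3 was low in both groups, and more so at T0. It was the lowest of the T0 libraries in 26 of the 30 tested genes, 86.7%, against 29.9% of all genes, and 4°C replicate 3 was the lowest of its group in 20, 66.7%, against 30.1% of all genes. The summed normalized count of the list was 98877, 93210 and 48360 in T0 replicates 1 to 3, 112138, 103890 and 96031 at 4°C and 26686 to 28718 at 24°C. Of the 30 genes, 5 rose and 2 fell, with 3 to 5 higher and 2 to 3 lower when 1 library was left out, 3 of them higher without 4°C replicate 1 or without 4°C replicate 2 and 4 higher and 3 lower without T0 replicate 3. With a replicate block 9 were higher. In the main fit 2.87% of all genes were called higher and 11.2% lower. CML38 (Solyc06g073830), a calmodulin-like calcium sensor, had 214, 187 and 65.8 at T0 and 1163, 1069.5 and 1096 at 4°C, a rise of 2.99 (standard error 0.45, adjusted p = 8.01e-05). Without T0 replicate 3, it differed by 2.46 and was still called. The abundant members were not called: CAM5 (Solyc10g081170), calmodulin, had 27556, 25615 and 13708 at T0 and 25791, 26017 and 27381 at 4°C, and MPK3 (Solyc06g005170), a mitogen-activated protein kinase of stress signalling, had 7709.6, 7519.7 and 3324 at T0 and 11325, 10033 and 8072 at 4°C. Their differences were 0.31 (adjusted p = 0.32) and 0.75 (adjusted p = 0.13).

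The calcium pump gene ACA2 (Solyc02g064680), the oxidase gene RBOHD (Solyc03g117980), CIPK3 (Solyc01g008850) and CPK16 (Solyc03g033540) were not called either, at 0.66, 0.84, 0.38 and 0.00. Kinase genes that moved were MAPKKK15 (Solyc07g064820) at 1.71 (adjusted p = 1.26e-05), MAPKKK21 (Solyc02g090980) at 1.43 (adjusted p = 0.00363) and CIPK1 (Solyc12g098910) at 0.55 (adjusted p = 0.00833) upward, and CIPK14 (Solyc10g085450) at -1.63 (adjusted p = 2.75e-07) and CIPK25 (Solyc06g068450) at -1.34 (adjusted p = 3.81e-05) downward.

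Genes of jasmonate, a hormone of defence, also had a low replicate 3 in both groups. T0 replicate 3 was the lowest of its group in 13 of 16, 81.2%, and 4°C replicate 3 in 11, 68.8%. The summed normalized count was 28270, 27498 and 8726 in T0 replicates 1 to 3 and 43486, 30520 and 20169 in the chilled libraries. AOS (Solyc04g079730), allene oxide synthase, had 2066, 1959 and 159 at T0 and 5474, 3264 and 1563 at 4°C, so both groups span a wide range and overlap (1.81, adjusted p = 0.18). LOX3 (Solyc03g122340), lipoxygenase, had 8469, 8681 and 2645 at T0 and 13409.7, 9319 and 6356 at 4°C (0.68, adjusted p = 0.41). The 3 most abundant JAZ1 genes, repressors of jasmonate signalling, were not called: Solyc03g122190 at 0.07 (adjusted p = 0.96), Solyc12g009220 at 1.91 (adjusted p = 0.049) and Solyc07g042170 at 0.24 (adjusted p = 0.78). CYP94B1 (Solyc07g006890), of jasmonate breakdown, was not called at 0.57 (adjusted p = 0.27), while its relative Solyc09g066150 fell, at -1.45 (adjusted p = 0.000843). OPR2, described above, was the member that rose, and the counts of 1 higher and 1 lower were the same without T0 replicate 3. Among all genes 2.87% were higher and 11.2% lower.

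Other hormone lists held few calls, where 2.87% of all genes were called higher and 11.2% lower. Of 12 auxin genes 2 rose and 0 fell: IAA4 (Solyc06g053840), an Aux/IAA repressor, had 1031, 1014 and 1119 at T0 and 2557, 3111 and 3382 at 4°C, a rise of 1.51 (standard error 0.12, adjusted p = 2.1e-08), and IAA19 (Solyc03g120380) rose by 0.84 (adjusted p = 0.000803). ARF7 (Solyc05g047460), ARF11 (Solyc05g056040), ARF16 (Solyc09g007810), GH3.6 (Solyc07g063850) and GH3-10 (Solyc08g068490) lay between -0.05 and 0.15. Of 8 gibberellin genes 1 fell: GA3OX1 (Solyc03g119910), the oxidase that makes the active hormone, had 256, 289 and 389.9 at T0 and 49.9, 59.6 and 75.2 at 4°C, a difference of -2.32 (standard error 0.25, adjusted p = 1.8e-06), with all chilled libraries under all T0 libraries. The inactivating oxidase genes GA2OX6 (Solyc01g079200) and GA2OX8 (Solyc02g080120) were not called (0.92 (adjusted p = 0.2) and 0.20 (adjusted p = 0.79)), nor were CPS1 (Solyc06g084240), RGA (Solyc10g086370) and GID1B (Solyc09g074270) at -0.80, 0.70 and 0.65. None of 3 ethylene synthesis genes was called as deposited, ACO4 (Solyc02g081190) at 0.25 (adjusted p = 0.035), ACS6 (Solyc08g081540) at 0.73 (adjusted p = 0.025) and ACS8 (Solyc02g063540) at 1.52 (adjusted p = 0.072); ACO4 and ACS6 were called higher after rescaling.

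Heat shock genes mostly fell where they moved, as did called genes at large (2299 lower and 589 higher). Of 21 tested heat shock factor, BAG co-chaperone and related genes, 5 fell and 1 rose, the same counts as without T0 replicate 3. HSFB2B (Solyc08g080540), a heat stress factor of the class that lacks an activation domain, had 298, 271 and 222 at T0 and 46.4, 30 and 36.8 at 4°C, a difference of -2.78 (standard error 0.27, adjusted p = 5.11e-07), and its 24°C mean was also low at 50.4 ± 10.3 (SD, n = 3). HSFB4 (Solyc04g078770) had 154, 181 and 158 at T0 and 35.8, 32.9 and 46.4 at 4°C, a difference of -2.09 (standard error 0.18, adjusted p = 1.14e-07), with a 24°C mean of 132 ± 7.8. HSFB2A (Solyc03g026020) fell, at -0.56 (adjusted p = 0.000159), but lay at -0.19 from the T0 libraries of the other batch, not called. BAG5 (Solyc06g072430) had 349, 363 and 231 at T0 and 54.2, 44.7 and 71.9 at 4°C, a difference of -2.44 (standard error 0.24, adjusted p = 5.2e-07), and BAG3 (Solyc08g080320) fell, at -1.23 (adjusted p = 7.49e-05). HSFC1 (Solyc12g007070) rose from 124, 146 and 132 to 366, 428 and 480.0, by 1.65 (standard error 0.16, adjusted p = 4.61e-07). The most abundant member, BAG1 (Solyc03g026220), was not called at -0.28 (adjusted p = 0.22), nor were HSFA8 (Solyc09g059520) at -0.25 (adjusted p = 0.21) and HSFA4A (Solyc03g006000) at 0.24 (adjusted p = 0.47).

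The lowest named genes held several regulators of growth and development. WOX4 (Solyc04g078650), a homeobox factor that maintains the vascular cambium in Arabidopsis, had 513, 456 and 393 at T0 and 81.5, 81.7 and 78.2 at 4°C. Its chilled libraries were nearly equal and all under T0, a difference of -2.47 (standard error 0.12, adjusted p = 3.54e-11), and at 24°C the mean was 531 ± 14.6 (SD, n = 3). TMO6 (Solyc11g072500), a Dof factor of the young vascular tissue in Arabidopsis, fell, at -2.1 (adjusted p = 8.74e-08). The GATA factor genes GATA12 (Solyc03g120890) and CGA1 (Solyc12g008830), the latter tied to greening in Arabidopsis, fell, at -2.1 (adjusted p = 9.03e-10) and -2.25 (adjusted p = 4.43e-06), with T0 values of 173, 239 and 215 and 4°C values of 38, 46.1 and 44.2 for CGA1.

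EDL3 (Solyc06g084320), an F-box gene, had 175, 221 and 179 at T0 and 37.8, 22.3 and 37.6 at 4°C, a difference of -2.55 (standard error 0.20, adjusted p = 3.23e-08). A gene named for cyclin B1 (CYC1BAT, Solyc11g030550), a protein of cell division, fell, at -2.2 (adjusted p = 0.000216), and NF-YB3 (Solyc12g006120), a subunit of a CCAAT-binding complex, at -2.13 (adjusted p = 7.2e-06). PUP10 (Solyc02g071080), named for a purine permease, a zinc finger gene (ZnTF, Solyc12g008660) and a bHLH gene (Solyc02g062690) fell, at -2.21, -2.32 and -2.11. Of these 14 lowest named genes, HSFB2B and GA3OX1 were also called lower at 24°C, at -2.37 (adjusted p = 1.92e-06) and -1.02 (adjusted p = 0.00373).

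Transcription factors were read from a table that the study drew up from these same samples, so their counts are no independent evidence of direction. Of 379 tested, 58 rose and 84 fell (71 and 70 after rescaling). Over all genes 2.87% rose and 11.2% fell (5.03% and 6.47% after rescaling). By family, ERF genes rose in 19 of 54 and fell in 7, and homeobox genes rose in 0 of 24 and fell in 9. After rescaling these became 20 and 6, and 1 and 7. WRKY genes rose in 6 and fell in 4 of 25, NAC genes rose in 2 and fell in 3 of 14, MYB genes rose in 7 and fell in 10 of 55, and bHLH genes rose in 0 and fell in 5 of 18 (3 and 3 after rescaling). Zinc finger genes, including Dof, GATA and CONSTANS-like factors, rose in 16 and fell in 22 of 64, bZIP genes rose in 2 and fell in 3 of 14, and GRAS genes rose in 3 and fell in 3 of 20 (4 and 2 after rescaling). Several of these small counts rest on single libraries. The 7 higher MYB genes became 3 without T0 replicate 1 or 4°C replicate 2, 4 without T0 replicate 2, 4°C replicate 1 or 4°C replicate 3, and were 7 without T0 replicate 3. The 5 lower bHLH genes became 1 without T0 replicate 2, 2 without T0 replicate 1 or 4°C replicate 1, 3 without T0 replicate 3 or 4°C replicate 3, and 4 without 4°C replicate 2. Higher GRAS genes numbered 1 without T0 replicate 3, higher NAC genes 1 without T0 replicate 3, 4°C replicate 1 or 4°C replicate 2, and higher bZIP genes 1 without any 1 of the 6 libraries. In a fit of the 6 compared libraries alone 2 WRKY genes were lower.

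Among ERF genes outside the CBF group, ERF4 (Solyc07g053740), a repressor with an EAR motif in Arabidopsis, had 2747, 2142 and 3244 at T0 and 8814, 7766 and 7912 at 4°C, a rise of 1.61 (standard error 0.13, adjusted p = 4.57e-08). RAP2.12 (Solyc06g063070), an oxygen-sensing factor, rose by 0.66 (adjusted p = 1.73e-06), RAP2.4 (Solyc04g072900) by 1.27 (adjusted p = 1.11e-05) and ERF3 (Solyc10g006130) by 1.43 (adjusted p = 1.05e-06). Solyc05g052040, described as an ethylene responsive factor 1a and the most abundant of the family, had 1846, 1467 and 3186 at T0 and 10334, 11248 and 11496 at 4°C, a rise of 2.42 (standard error 0.26, adjusted p = 1.52e-06). Solyc03g093540 and Solyc03g093560, described as ethylene responsive factors 1a and 2, rose by 2.28 (adjusted p = 1.02e-05) and 2.28 (adjusted p = 2.87e-05), Solyc11g042560 by 3.04 (adjusted p = 0.00475), and a gene named FUS3 (Solyc02g094460) by 3.3 (adjusted p = 0.00371). The last 2 are low, and FUS3 had 0.524, 0.408 and 1.53 at T0 and 13.7, 18.8 and 16.8 at 4°C. The abundant ERF gene Solyc04g054910 was not called, at -0.31 (adjusted p = 0.2). Of the zinc fingers, CZF1 (Solyc05g052570), a CCCH protein, had 3744, 3203 and 4329.8 at T0 and 12669, 12205 and 11032 at 4°C, a rise of 1.68 (standard error 0.13, adjusted p = 2.04e-08), and a further gene named STZ (Solyc04g077980) had 1465, 1145 and 1189 at T0 and 6895, 6297 and 6039 at 4°C, a rise of 2.35 (standard error 0.14, adjusted p = 5.45e-10). A C2H2 gene (Solyc02g088670) and Solyc06g074800 rose by 4.01 (adjusted p = 0.000385) and 2.52 (adjusted p = 4.81e-07), while GATA17 (Solyc01g100220) and a Dof gene (Solyc02g076850) fell, at -2.86 (adjusted p = 1.81e-06) and -2.28 (adjusted p = 0.000843).

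WRKY33 (Solyc06g066370), of defence signalling, had 3812, 3373 and 6034 at T0 and 9502, 8655 and 8238 at 4°C, a rise of 1.04 (adjusted p = 0.00162); its namesake Solyc09g014990 rose by 1.65 (adjusted p = 0.000132), WRKY41 (Solyc01g095630) by 1.09 (adjusted p = 0.00105), WRKY11 (Solyc08g006320) by 0.63 (adjusted p = 0.000326) and WRKY22 (Solyc10g011910) by 2.15 (adjusted p = 3.24e-05). WRKY7 (Solyc04g078550) was not called, at -0.10 (adjusted p = 0.55). WRKY53 (Solyc08g082110) and WRKY49 (Solyc09g010960) fell, at -2.25 (adjusted p = 0.00136) and -2.63 (adjusted p = 0.000737), and the call of WRKY49 was lost in the fit of the 6 compared libraries alone (-2.63). WRKY40 (Solyc03g116890) again had a low T0 replicate 3, with 1932, 1756 and 334 at T0 and 2312, 1932 and 1188 at 4°C, and was not called (0.74, adjusted p = 0.48). ATAF1 (Solyc06g060230), a NAC factor of stress, had 656, 655 and 653 at T0 and 1788, 2001 and 1945 at 4°C, a rise of 1.54 (standard error 0.14, adjusted p = 2.57e-07), while both genes named NAC083, Solyc01g009860 and Solyc03g097650, fell, at -1.18 (adjusted p = 0.00097) and -2.58 (adjusted p = 2.78e-08). The most abundant NAC gene, TIP (Solyc03g080090), had 6204, 5640.4 and 3717 at T0 and 9606, 8883 and 8228 at 4°C, a rise of 0.81 (adjusted p = 0.00347) whose call was lost without T0 replicate 3 (0.59), 4°C replicate 1 (0.75) or 4°C replicate 2 (0.81). NAC062 (Solyc06g073050), NAC017 (Solyc12g056790) and NAC038 (Solyc04g079940) were not called, at 0.49, -0.25 and 0.71.

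MYB15 (Solyc03g005570), which binds CBF promoters in Arabidopsis, rose by 1.16 (adjusted p = 0.00447), and MYB77 (Solyc04g079360), of auxin response, by 2.34 (adjusted p = 0.000129). MYB27 (Solyc10g083900) rose by 3.25 (adjusted p = 0.00324), and MYB43 (Solyc04g014470) fell, at -2.45 (adjusted p = 0.000716). A MYB gene with no name (Solyc06g076770) fell, at -0.71 (adjusted p = 0.00013), and TRFL6 (Solyc03g121990) was not called, at -0.29 (adjusted p = 0.083).

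GRAS factors take part in light and hormone signalling. PAT1, of phytochrome A signalling in Arabidopsis, names 3 of the abundant members: Solyc12g005340 had 2077, 1847 and 1319.8 at T0 and 4280.3, 3464 and 2627 at 4°C and rose by 0.98 (adjusted p = 0.00267), a call lost without T0 replicate 3 (0.79), 4°C replicate 1 (0.81) or 4°C replicate 2 (0.97), while Solyc07g063940, with 2389, 2403 and 791 at T0 and 5601, 4459 and 3576 at 4°C, and Solyc07g065270 were not called, at 1.43 (adjusted p = 0.032) and -0.16 (adjusted p = 0.22). GRAS2 (Solyc06g082530) and SCL13 (Solyc05g054170) were not called, at 0.33 and 0.07, and SCL1 (Solyc04g064550) was called higher only after rescaling, at 0.30 (adjusted p = 0.039) as deposited. A further GRAS gene (Solyc03g123400) rose by 3.43 (adjusted p = 0.00181). The bHLH genes Solyc06g062460 and Solyc03g006910 fell, at -2.76 (adjusted p = 4.05e-08) and -2.43 (adjusted p = 0.00223), and the abundant SPT (Solyc04g078690) and Solyc11g056650 were not called, at -0.12 and -0.13. Solyc02g070880, also bHLH, was called higher only after rescaling, at 0.42 (adjusted p = 0.038) as deposited. The light-signalling bHLH genes PIF5 (Solyc07g043580) and UNE10 (Solyc01g090790) were called higher only after rescaling, at 0.49 (adjusted p = 0.02) and 0.43 (adjusted p = 0.047) as deposited. PIF1 (Solyc06g008030) had 622, 579 and 1031 at T0 and 536, 665 and 808 at 4°C and was not called (-0.12, adjusted p = 0.77). 

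The bZIP genes moved both ways. BZIP53 (Solyc01g079480), of energy and amino acid metabolism in Arabidopsis, had 1174, 940.4 and 1089.9 at T0 and 1735, 1689.6 and 1759 at 4°C, a rise of 0.70 (adjusted p = 7.35e-05), and the most abundant, Solyc01g110480, rose by 0.46 (adjusted p = 0.00685), a call that was lost without any 1 of the 6 libraries. bZIP44 (Solyc01g109880) fell from 411, 426 and 401 to 191, 225 and 261, at -0.88 (adjusted p = 2.06e-05). A low gene, bZIP42 (Solyc04g005170), had 5.57, 9.28 and 14.2 at T0 and 0.078, 0.062 and 1.37 at 4°C and fell, at -2.85 (adjusted p = 0.00313), but with a pseudocount of 10 in place of 1 its difference was -0.89 and it was not called. A second BZIP53 gene (Solyc06g009640), bZIP23 (Solyc01g111580) and GBF3 (Solyc01g095460) were not called, at 0.11, -0.10 and -0.09.

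Among homeobox genes, HB6 (Solyc11g010270), a leucine zipper factor, had 2949, 3119 and 3786 at T0 and 1759, 2021 and 2216 at 4°C, a difference of -0.71 (adjusted p = 0.000656), and the zinc finger homeodomain genes HB34 (Solyc02g067310) and HB30 (Solyc02g067320) fell, at -0.95 (adjusted p = 7.31e-08) and -0.62 (adjusted p = 6.27e-05). HAT22 (Solyc02g091930), of the leucine zipper class, was called higher only after rescaling, at 0.44 (adjusted p = 0.037) as deposited, and BLH1 (Solyc11g068950) and BLH3 (Solyc04g080790), of the BEL1-like class, were not called, at -0.03 and -0.06.

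Nutrition and phenylpropanoid genes added a few calls, where 2.87% of all genes were called higher and 11.2% lower. Of 14 nitrate and phosphate genes 2 rose and 1 fell: SPX2 (Solyc12g009480), a phosphate sensor, had 242, 253 and 228 at T0 and 1006, 1251 and 1213 at 4°C, a rise of 2.25 (standard error 0.14, adjusted p = 1.11e-09), NRT1.1 (Solyc08g078950), the dual-affinity nitrate transporter, rose by 0.60 (adjusted p = 0.00179), and CLC-A (Solyc02g094060) fell, at -0.65 (adjusted p = 0.00519) as deposited but was not called after rescaling. LBD37 (Solyc01g107190) was not called, with 468, 462 and 447 at T0 and 248, 250.3 and 446 at 4°C, nor were NIR1 (Solyc10g050890), nitrite reductase, and the nitrate transporter gene NRT1.5 (Solyc01g080870), at -0.27 and 0.64. SPX1 (Solyc08g060920) was called higher only after rescaling, at 0.39 (adjusted p = 0.054) as deposited. Of 7 phenylpropanoid genes 2 rose, both named PAL1 for phenylalanine ammonia-lyase, the entry step: Solyc09g007900 had 11262, 11399.9 and 7905 at T0 and 18222, 17402 and 16030.2 at 4°C (0.77, adjusted p = 0.00885) and its neighbour Solyc09g007910 rose by 0.99 (adjusted p = 0.00146). The lignin pathway genes CCoAOMT1 (Solyc02g093230), HCT (Solyc07g005760) and FAH1 (Solyc12g042480) and the flavonol regulator MYB12 (Solyc01g079620) were not called, at 0.65, -0.04, -0.49 and -0.17. Without a single library the count of called phenylpropanoid genes was 0 to 1, being 0 without T0 replicate 3.

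**Figure D4:**
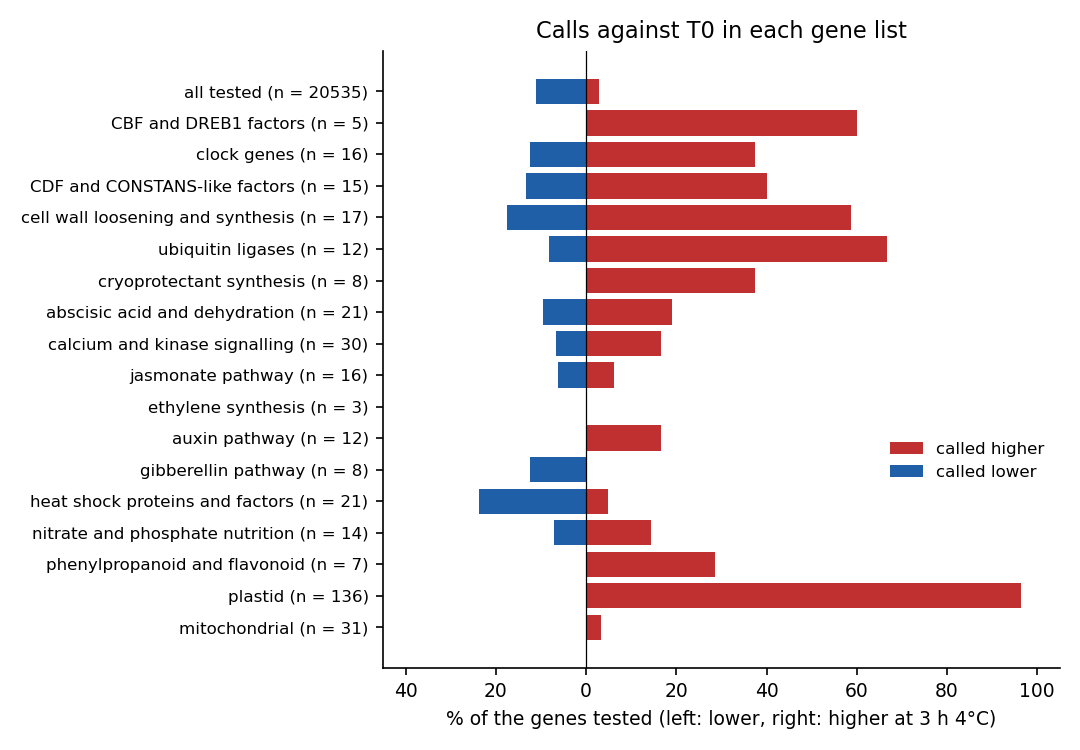
Share of the tested genes of each list (%) called higher (red, right) or lower (blue, left) at 3 h at 4°C against T0, with the number tested in brackets. Over all 20535 genes 2.87% were higher and 11.2% lower, and the plastid genes (131 of 136 higher) have the longest bar.

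Plastid genes showed the most uniform change in normalized counts. The study's methods do not say how RNA was selected for the libraries, so these values are shares of what was sequenced. The plastid genome codes for core subunits of the photosystems, the cytochrome b6f complex, ATP synthase and the NDH complex, for the large subunit of Rubisco, and for part of its own ribosomes, tRNAs and RNA polymerase. Its genes held 0.397%, 0.718% and 0.394% of the normalized counts at T0 and 6.77%, 6.73% and 6.73% at 4°C. The means were 0.503% ± 0.186 and 6.74% ± 0.0223 (SD, n = 3), a ratio of 13.4, and the groups did not overlap. An exact permutation test (two-sided) gave p = 0.1, the smallest that 3 against 3 libraries allow. At 24°C the share was 0.284% ± 0.0363. The T0 libraries of the other batch held 2.18% ± 0.134, and against those the ratio was 3.09 and the difference 4.56 percentage points instead of 6.24, with 120 plastid genes higher, 1 lower and a median log2 difference of 3.49. Shoots after 30 min at 4°C, sequenced with that other batch, held 4.97% ± 1.16. Those kept for 30 min at 24°C in the same batch held 0.222%, 0.406% and 0.643%. The plastid share thus also lay below T0 of that batch without chilling, and the cause was not tested. Of 136 plastid genes 131 were higher and 0 lower, with a median log2 difference of 4.97, and 132 had libraries that did not overlap, against 46.7% of all genes.

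Ribosomal RNA made up most of that share. The 4 plastid rRNA genes held 0.355% ± 0.174 at T0 and 4.92% ± 0.0512 at 4°C (SD, n = 3), and the most abundant, LyesC2r002 (3950431), had 39680.4, 83771 and 40964 at T0 and 685916, 663679 and 666226 at 4°C. LyesC2r001 (3950467) followed with 10769, 29005 and 11734 at T0 and 315586, 316989 and 323061 at 4°C, a rise of 4.37 (adjusted p = 6.1e-08), but stood 1.17 above the T0 libraries of the other batch and was not called against those. The 41 tRNA genes rose in every case and had the largest median of the roles, 6.20 on the log2 scale, from 0.00336% to 0.313% of the normalized counts. The 4 RNA polymerase genes rose by 4.91 to 6.49. Where the inverted repeat of the plastid genome holds a gene in 2 copies, their reads cannot be told apart.

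Photosynthesis genes rose by amounts that differed within complexes. psbA (3950408), for the D1 protein of photosystem II, had 690.1, 1194 and 738 at T0 and 37524, 37706 and 38867 at 4°C, a rise of 5.49 (standard error 0.32, adjusted p = 3.1e-10). rbcL (3950460) had 926, 1692 and 1155 at T0 and 34258, 35059.7 and 34084 at 4°C, a difference of 4.82 (standard error 0.26, adjusted p = 1.6e-10), and psaA (3950484), of the photosystem I core, had 331, 496 and 376 at T0 and 24491, 26088 and 26562 at 4°C, a difference of 6.02 (standard error 0.38, adjusted p = 1.19e-09). psbB (3950388) and psbC (3950405), antenna proteins of photosystem II, rose by 5.16 and 5.58. Over the 15 photosystem II genes the differences ran from 1.66 to 7.36 (median 3.80), over the 5 photosystem I genes from 3.31 to 6.38, over the 6 cytochrome b6f genes from 3.38 to 6.31, and over the 12 NDH genes from 1.42 to 5.84.

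The 5 plastid genes that were not called were of ATP synthase and the small ribosomal subunit. atpB (3950387), for a subunit of ATP synthase, had 10252, 9319.9 and 8608 at T0 and 10853, 10911 and 10016 at 4°C, a log2 difference of 0.18 (adjusted p = 0.42), and atpE (3950391) beside it differed by 0.10 (adjusted p = 0.66). For both genes this depended on the T0 libraries. T0 libraries of the other batch had lower means, 3329 for atpB and 1017 for atpE. Those stood at -1.50 and -1.86 on the log2 scale from the T0 libraries used here. The gene rps7 (3950463), of the small ribosomal subunit, had 2767, 2532 and 2626 at T0 and 3359.9, 3281 and 3511 at 4°C (0.36, adjusted p = 0.11), and its second entry (16976776) differed by 0.34 (adjusted p = 0.33). An rps19 entry listed as a pseudogene (16976781) was low, with 8.11, 10.6 and 11.1 at T0 and 5.59, 2.3 and 8.51 at 4°C (-0.88, adjusted p = 0.43). The protein-coding rps19 entry (3950383) was called higher, at 2.90 (adjusted p = 3.76e-06). The remaining 4 ATP synthase genes were higher.

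**Figure D5:**
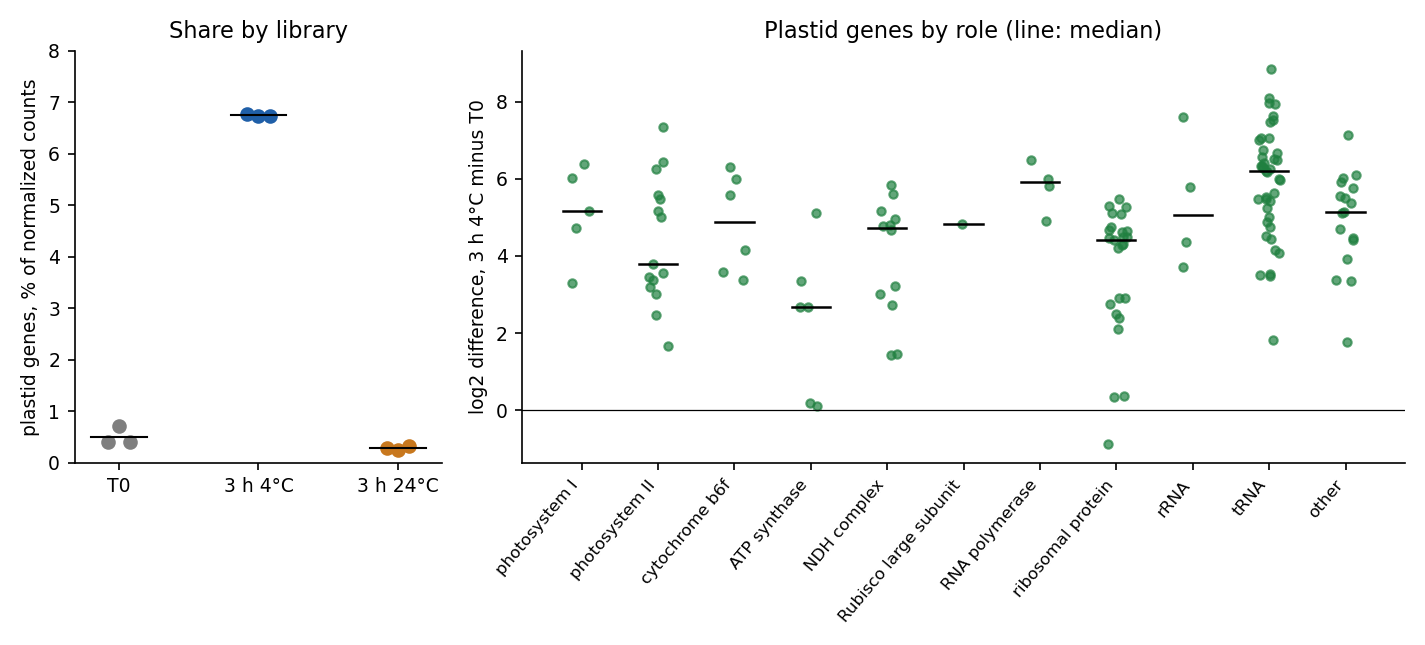
Left, share of all normalized counts (%) held by plastid genes in each library at T0, 3 h at 4°C and 3 h at 24°C, with a line at the mean of 3. Right, log2 difference between 3 h at 4°C and T0 for each plastid gene (points, 136 genes) by role with the median as a line. The tRNA genes have a median of 6.20, and only the rps19 pseudogene entry (16976781) lies below 0.

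Few transcripts of the mitochondrial genome were called. They held 0.0284% ± 0.00479 of the normalized counts at T0 and 0.0295% ± 0.00239 at 4°C (SD, n = 3), with an exact permutation p of 0.8 (two-sided). In the T0 libraries of the other batch the share was 0.145% ± 0.0199. Of 31 genes 1 rose, rpl2 (34678304), a ribosomal protein gene, with 156, 131 and 122 at T0 and 279.7, 239.7 and 266 at 4°C, a difference of 0.94 (standard error 0.21, adjusted p = 0.00305). That call was lost without any 1 of 4 libraries (0.87 to 0.93). The most abundant, rrn26 (34678288) and rrn18 (34678307), had differences of -0.15 (adjusted p = 0.75) and 0.14 (adjusted p = 0.76), and nad4 (34678311), of respiratory complex I, 0.48 (adjusted p = 0.12).

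Many of the strongest calls carry no name. Among nuclear genes that met the same conditions as the named ones, 255 higher and 904 lower had none, against 129 and 82 with a name. The 2 highest were Solyc06g068640, with 3.63, 7.38 and 0.06 at T0 and 127, 179 and 281 at 4°C, and Solyc11g071750, with 10.2, 0.589 and 4.19 at T0 and 127, 123 and 94.4 at 4°C. The 2 lowest were Solyc12g038420, with 153, 171 and 91.2 at T0 and 4.85, 8.21 and 12.9 at 4°C, and Solyc09g009130, with 566, 529 and 443 at T0 and 37.90, 34.7 and 53.7 at 4°C. Their log2 differences were 5.75, 4.67, -3.89 and -3.59. For the lower pair the 24°C means were 46.8 ± 22.3 and 69.3 ± 10.5 (SD, n = 3), also under T0.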

How the data were processed

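The signal values are normalized counts that the authors deposited. Libraries were prepared with an Illumina TruSeq RNA kit, and the study's methods do not state how RNA was selected. Per the study's methods, BBMap version 37.93 aligned the reads to the tomato genome (ITAG 3.2) with both organelle genomes, featureCounts of Subread counted them per gene, and the authors scaled the counts by TMM (trimmed mean of M values). The version of Subread, and whether counting used strand, are not given in the sources used here. The values are not whole and hold no depth, so whole reads could not be recovered and no count model was run.

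Genes were tested where 3 or more shoot libraries reached 10. limma version 3.58.1 (R version 4.3.3) was fitted with a trend on log2(value + 1) to all 18 shoot libraries in 6 groups, the T0 libraries of each batch being separate groups. The contrasts were 3 h 4°C against T0 and, for values given beside it, 3 h 24°C against T0 and 3 h 4°C against 3 h 24°C; these share libraries. Adjusted p-values are Benjamini-Hochberg over all 20535 genes, called under 0.01. The fit was tested on simulated data for 3 h 4°C against T0 with 20535 genes: it called 32% of genes set to change 1.5-fold, 57% at 2-fold and 88% at 4-fold, and 2 of 20335 unchanged genes. Means carry the SD over 3 libraries, and shares of all normalized counts were compared by an exact permutation test (SciPy version 1.17.1).

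Nuclear gene names were read from the study, which mostly gives the nearest Arabidopsis gene; 773 of 20368 tested nuclear genes have one. Many come from genes that another study found responsive to cold, and others from a table that the study drew up from these same samples. The lists are therefore not a neutral sample of shoot genes, and their counts are no independent evidence. Of the 773 named nuclear genes 258 were called, against 2888 of all 20535 tested. Plastid and mitochondrial genes were named from RefSeq (167 of 167 matched). The members and lists were chosen with earlier results of these data known. The genes named are the 14 highest and 14 lowest named nuclear genes called in the same direction with and without rescaling, provided that one group averaged 100 or more and the libraries did not overlap; all members of the CBF, clock, CDF and CONSTANS-like and cryoprotectant lists; the 6 most abundant members of other lists and any changed at least 4-fold; the 8 most abundant plastid and 4 mitochondrial genes; 2 unnamed IDs in each direction; and EF1a. The text states which other list members were picked after their values were seen. Of the shoot value columns, 0 were left unmapped, and the 9 root libraries were not analysed here, nor were motifs or sequences. Alternatives were other pseudocounts, filters, scalings, T0 libraries, a replicate block, a threshold of 0.05 and leaving out each library.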

Additional observations from a re-analysis of the deposited data

Results flagged for a closer look

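In 21 of the nuclear genes described, the change from T0 was called and at least 4-fold at both temperatures, higher at 4°C and lower at 24°C. The difference between temperatures at 3 h was also called in the direct limma test. That difference is the gap between both changes in the same fit. Its call therefore follows from how these genes were picked and is no separate evidence. The comparisons share the T0 libraries, and the values are log2 differences, 4°C minus 24°C. The 4°C values stood above those at 24°C by 8.79 for CBF3, 8.04 for CBF2 and 4.69 for DREB1D among the CBF group. Other ERF genes differed by 6.89 (Solyc03g093540), 6.19 (Solyc03g093560) and 4.66 (Solyc05g052040). The zinc finger genes AZF3 and STZ (Solyc12g088390) differed by 6.68 and 6.61, the STZ gene Solyc04g077980 by 6.19, and the MYB genes RVE1 and MYB77 by 5.48 and 4.58. Among cell wall genes the differences were 6.98 for XTH15, 6.93, 6.22 and 5.66 for the XTH23 genes Solyc03g093110, Solyc03g093120 and Solyc03g093080, and 6.27 for EXO (Solyc04g074440). The PUB23 genes Solyc01g007030 and Solyc01g007000 differed by 6.92 and 5.34, BCS1 by 7.2, CYP707A1 by 6.02 and CML38 by 5.66. Their cause was not tested.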

How the results depend on the processing

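The largest shifts came from the T0 libraries. Against T0 of the other batch 7065 genes were called, 3113 higher and 3952 lower, with 919 and 1507 at least 2-fold, and against the mean of both T0 groups 5016 were called, 1426 higher and 3590 lower. Against the T0 libraries of the other batch the plastid share differed by 4.56 percentage points. With those libraries some differences changed sign: rrn18 to -2.33 (-1.09 against the mean of both), nad4 to -1.22, rpl2 to -0.0857, RHA2A to -0.0872, RVE8 to 0.67, WRKY7 to 0.55 and PIF1 to 0.79. Against the same libraries 10 described genes lost their call without changing sign: LyesC2r001 (1.17), ELF4 (0.94), HSFB2A (-0.19), HB30 (-0.27), XERICO (-0.72), MAPKKK21 (1.09), CLC-A (-0.45), PAL1 Solyc09g007900 (0.26), Solyc11g042560 (2.15) and Solyc03g006910 (-1.72). Against the mean of both T0 groups RHA2A (0.26), PAL1 Solyc09g007900 (0.52) and rpl2 (0.43) lost theirs. List counts also moved against the other T0 libraries, to 9 higher calcium and kinase genes, 13 higher MYB, 10 higher WRKY, 7 lower GRAS, and 5 higher and 2 lower bHLH genes. The cause was not tested. Rescaling by median ratios over nuclear genes gave 1033 higher and 1328 lower, and in a fit of the 6 compared libraries, an alternative chosen after seeing the data, 1231 and 1331, with 7 described genes losing their call (the 6 named above and CLC-A). The fit of those 6 libraries without rescaling lost RHA2A and WRKY49, and had 5 higher cryoprotectant and 2 lower gibberellin genes, and scaling to the same nuclear sum lost CLC-A. At an adjusted p under 0.05, 4693 genes were called, 3822 of them lower. Leaving out 1 library gave 1966 to 2240 calls, 422 to 488 higher and 1523 to 1784 lower (1523 without 4°C replicate 1), 332 to 372 and 725 to 857 at least 2-fold, and a plastid difference of 6.19 to 6.35. Of 141 called genes described, 26 lost their call without at least 1 library, among them COL2, Solyc09g074560, PME1, MAPKKK21, CIPK1, CLC-A, NRT1.1, WRKY33 (Solyc06g066370), MYB15, MYB27, FUS3, Solyc11g042560, Solyc03g123400, Solyc03g006910, Solyc01g110480, TIP, PAT1 Solyc12g005340 and bZIP42, besides those given above. Same-numbered T0 and 4°C replicates correlated at 0.103, -0.0055 and 0.15. T0 replicates 1 and 3 correlated best with their own number, while T0 replicate 2 did not. Whether same-numbered pools shared a growth run is not stated, and the main fit did not pair them. A replicate block gave 3165 calls, 651 higher and 2514 lower, with the call of GI-2 lost, 9 higher calcium and kinase genes, and 2 higher and 2 lower jasmonate genes. Every other pseudocount and filter tried kept the counts of all genes within 1.5 times, and of the genes described bZIP42 lost its call at a pseudocount of 10 (-0.89). The files hold no depth, so the precision of low values is unknown.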
